A study of Mus musculus with 16 samples.

Results

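The keratin genes Krt4, Krt79, Krt8, Krt18 and Krt23 were followed in mouse liver, as a set of 5 genes chosen by name to join the usual keratins of hepatocytes with keratins that are unusual in liver. They were selected on earlier results of the same libraries, in which Krt4 and Krt79 stood out after estrogen treatment. Of the 5 genes, Krt4 (ENSMUSG00000059668), Krt79 (ENSMUSG00000061397), Krt8 (ENSMUSG00000049382) and Krt18 (ENSMUSG00000023043), 4 in all, have a row among the 13006 genes of the table, and Krt23 was not analysed here. All 4 passed the filter on low counts, but Krt4 and Krt79 passed it only through the estrogen-treated groups.

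Keratins are the intermediate filament proteins of epithelial cells. A filament forms from pairs of a type I and a type II keratin, and both are needed for a stable filament. In adult hepatocytes the filaments are built from the type II keratin K8 and the type I keratin K18, which protect the cell from mechanical and toxic stress and gather with other proteins in Mallory-Denk bodies of injured liver. Bile duct cells add K7 and K19. Krt4 encodes a type II keratin of the suprabasal layers of mucosal stratified epithelium such as that of the oesophagus, and Krt79 a type II keratin known from the hair follicle and sebaceous duct.

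Liver messenger RNA was sequenced as poly(A) libraries from mice labelled Humanized PXR-CAR-CYP3A4/3A7, a genotype that all groups share and that names the human xenobiotic receptors PXR and CAR and human CYP3A enzymes. EM mice received ethinylestradiol (EE), a synthetic estrogen used to induce cholestasis, under the skin at 10 mg/kg for 7 days, and MI763F, a compound known by its code name, by gavage at 2.5 mg/kg for 6 days from day 2. EV mice received EE alone, CM mice MI763F alone, and CV mice the propylene glycol vehicle. Each group has 4 libraries. Age and sex are not stated in the labels, nor is whether mice without MI763F received its oral carrier. The labels do not tie a library to one animal, and p-values therefore reflect the spread among libraries, which may be technical.

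The libraries held 14115384 to 21473227 estimated counts. Levels are given in CPM, the count scaled to the library's size after correction for composition, and the deposited values behave as already divided by gene length, so levels of different keratins were compared on this scale. The scaling factors were 1.10 to 1.23 in the 8 libraries with EE and 0.833 to 0.910 in the 8 without. Scaling by library totals alone moved the median log2 fold change of all genes to 0.38 for EM against CM, 0.49 for EV against CV and -0.11 for EM against EV, from values near 0. A gene was called at an adjusted p under 0.05 (edgeR quasi-likelihood test, Benjamini-Hochberg over all genes tested). In bulk liver, fewer cells of a type and less RNA per cell cannot be told apart.

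The 4 measured keratins lie close together. In the RefSeq order of protein-coding genes, Krt4, Krt79, Krt78, Krt8 and Krt18 are 5 consecutive genes of chromosome 15, and Krt78 was not analysed here. The 250 bases before the start are shown for the members with an entry in the RefSeq promoter table of build GRCm38.p6, because Krt79 was detected mainly with EE while Krt8 and Krt18 were present in all groups. Capitals mark AGGTCA, the half-site of the estrogen response element and of several other nuclear receptors, searched on both strands. The windows are chr15:101940325-101940574 on the minus strand for Krt79, chr15:102004343-102004592 on the minus strand for Krt8 and chr15:102027966-102028215 on the plus strand for Krt18.

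Krt79: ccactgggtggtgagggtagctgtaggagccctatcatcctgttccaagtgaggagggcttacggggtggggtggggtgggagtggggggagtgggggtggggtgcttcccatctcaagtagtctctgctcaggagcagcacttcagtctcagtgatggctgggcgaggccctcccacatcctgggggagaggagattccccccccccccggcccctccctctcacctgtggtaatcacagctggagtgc

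Krt8: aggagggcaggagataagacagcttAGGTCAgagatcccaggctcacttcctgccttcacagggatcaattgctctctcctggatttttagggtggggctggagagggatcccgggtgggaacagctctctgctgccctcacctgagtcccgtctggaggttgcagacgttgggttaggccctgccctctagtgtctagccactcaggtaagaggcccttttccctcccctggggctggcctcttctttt

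Krt18: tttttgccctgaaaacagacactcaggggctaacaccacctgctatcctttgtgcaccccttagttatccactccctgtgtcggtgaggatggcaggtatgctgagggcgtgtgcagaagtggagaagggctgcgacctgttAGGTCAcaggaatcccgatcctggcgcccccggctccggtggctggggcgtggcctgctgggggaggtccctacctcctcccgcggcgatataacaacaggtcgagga

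The half-site was found once in the Krt8 window, with its first base 225 bases before the start, and once in the Krt18 window, 108 bases before the start. It was not found in the Krt79 window. Of 32851 windows of the same length, 14.02% held it. The palindromic element GGTCANNNTGACC, which contains part of the half-site, was in none of the 3 windows and in 0.0639% of all windows. A match describes letters in the window and shows no binding.

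Krt4 was about as abundant as Krt18 in EV livers (medians of 372 CPM for Krt4 and 378 CPM for Krt18) and was close to 0 without EE. Its level was 281, 197, 141 and 188 CPM in EM libraries, against 565, 380.4, 317 and 363 CPM in EV libraries. It was 0, 0.0641, 0.0772 and 0.0526 CPM in CM libraries and 0, 0.229, 0 and 0.0589 CPM in CV libraries. Every library with EE lay far above every library without it, and every EM library lay below every EV library. The share of all genes with groups apart in these ways was not counted. The CM libraries held 3 counts of Krt4 in all and the CV libraries 4, so levels without EE are at the limit of detection. Summed counts of each group were divided by its summed library sizes, corrected for composition. The ratio of these values was 4039.5 for EM against CM, with a 95% counting interval of 1382 to 19590. For EV against CV the ratio was 6068.6, with an interval of 2369.9 to 22274. These intervals pool the counts of the libraries of a group, leave out the spread among libraries and are no test. They are also approximate, since the deposited values are not plain read counts. The levels of Krt4 chose the gene and are given with no test.

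Krt79 followed the same pattern at a lower level. It stood at 76.7, 87.8, 85.8 and 98.7 CPM in EM libraries, against 167, 115, 112 and 116 CPM in EV libraries. In CM libraries it was 0.0751, 0.0641, 0 and 0.0526 CPM, and in CV libraries 0.214, 0.229, 0 and 0.0589 CPM. The groups with EE did not overlap those without it, and the share of all genes apart in this way was not counted. Summed counts were 3 in CM and 7 in CV, so no fold is given between CM and CV for Krt4 or Krt79. The ratio of summed counts, taken as for Krt4, was 1768.9 for EM against CM, with a counting interval of 605 to 8580. For EV against CV it was 1080.3, with an interval of 524 to 2688. These intervals leave out the spread among libraries too.

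**Figure D1:**
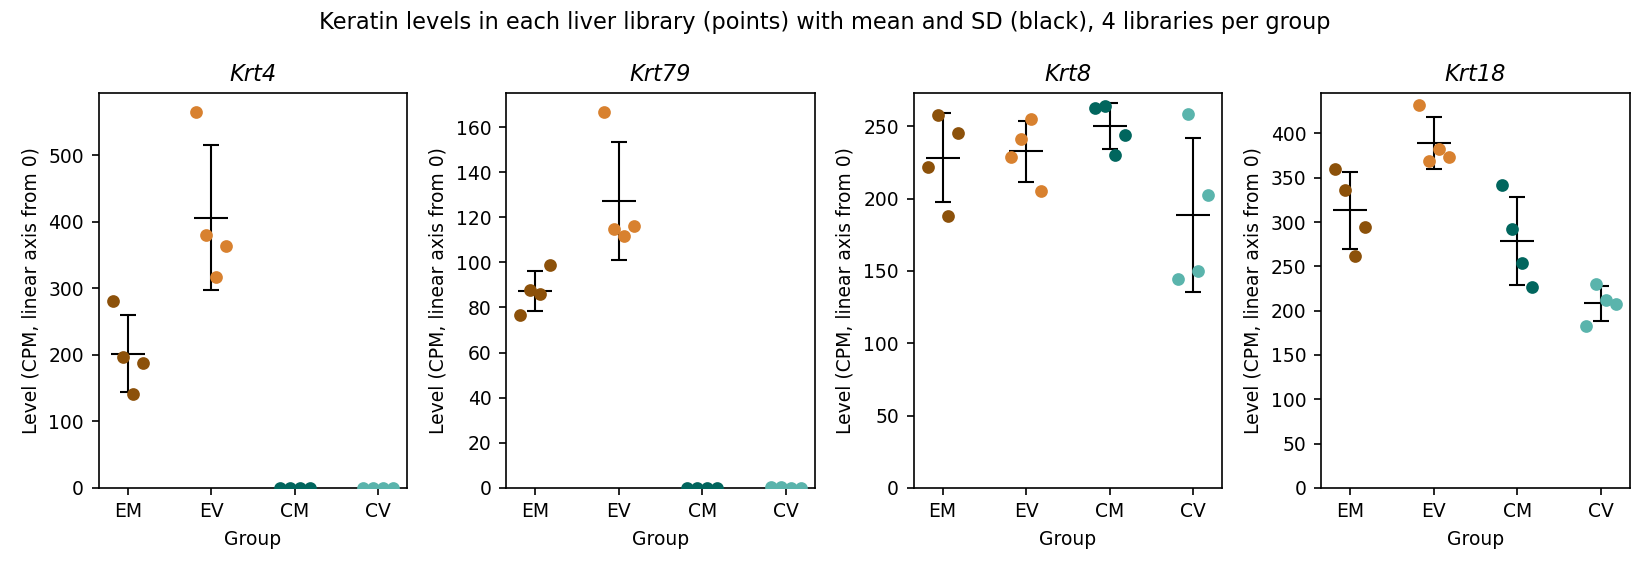
Level of each keratin (CPM, linear axes from 0) in the 4 libraries of the EM, EV, CM and CV groups, with the mean and SD in black. Krt4 and Krt79 sit near 0 in CM and CV, whereas Krt8 and Krt18 are above 140 CPM in every library.

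Between the groups with EE, Krt4 averaged 202 ± 58.4 CPM in EM and 406 ± 109 CPM in EV (SD, n = 4 each), a log2 fold change of -1.01 ± 0.23 (SE). That value was known when the gene was chosen and is given with no test. Krt79 averaged 87.3 ± 9.05 CPM in EM and 127 ± 26.2 CPM in EV (SD, n = 4 each). Its log2 fold change was -0.55 ± 0.17 (SE), which did not pass the edgeR test (adjusted p = 0.129). The EM and EV libraries did not overlap, and the share of all genes without such overlap was not counted. DESeq2 gave an adjusted p of 0.0187 for the same difference. Krt79 was chosen with its EV level known, so these p-values are not independent of the choice. The EV mean of Krt79 leans on 1 library, EV replicate 1 at 167 CPM, and without it the log2 fold change was -0.40 with an edgeR adjusted p of 0.430. In EM against EV, 1.69% of all genes were called in either direction, and 0 of the 3 keratins tested there (Krt79, Krt8 and Krt18) were. By edgeR their unadjusted p was 0.0051 for Krt79, 0.864 for Krt8 and 0.0263 for Krt18. Of all 12918 genes, 1642 had an unadjusted p under 0.05 in that comparison.

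The balance between the 2 unusual keratins also differed among libraries. The ratio of Krt4 to Krt79 was 3.67, 2.25, 1.64 and 1.91 in EM libraries, against 3.39, 3.31, 2.84 and 3.12 in EV libraries. EM replicate 1 had the highest ratio of all 8 libraries, and the other EM libraries had the lowest ratios. The groups therefore overlapped.

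Krt8, the main type II keratin of hepatocytes, was present at over 140 CPM in every library. It was 222, 258, 188 and 245 CPM in EM libraries and 229, 241, 255 and 205 CPM in EV libraries. CM libraries had 262, 264, 230.4 and 244 CPM, and CV libraries 145, 258, 149.7 and 203 CPM. CV was the group with the widest spread, and every pair of groups overlapped. The order of the means was CM, EV, EM and CV, with no neighbours separated beyond their spread.

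None of the tested differences of Krt8 passed. The mean was 228 ± 30.8 CPM in EM and 250.2 ± 15.9 CPM in CM (SD, n = 4 each), a log2 fold change of -0.13 ± 0.16 (SE, edgeR adjusted p = 0.548). With library totals that value was 0.24, so the direction depends on the scaling. For CM against CV, with a CV mean of 189 ± 53.2 CPM (n = 4), the log2 fold change was 0.41 ± 0.16 (edgeR adjusted p = 0.370). For EM against EV, with an EV mean of 233 ± 21.2 CPM (n = 4), it was -0.027 ± 0.16 (edgeR adjusted p = 0.969), and the sign turned without EV replicate 3 (0.016) or EM replicate 3 (0.055). The value for EV against CV was 0.30 ± 0.16, given with no test. It was 0.79 with library totals, and 0.19 to 0.49 when 1 library was left out.

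Krt18, the type I partner of Krt8, was highest with EE alone. It stood at 359.8, 336, 262 and 295 CPM in EM libraries and at 433, 369, 382 and 373 CPM in EV libraries. CM libraries had 341, 293, 253 and 227 CPM, and CV libraries 182, 230.5, 212 and 208 CPM. The order of the means was EV, EM, CM and CV. All EV libraries lay above all EM libraries, while EM overlapped CM, and CM overlapped CV at 1 library each. The share of all genes with EV and EM apart in this way was not counted.

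With MI763F given to both groups, Krt18 averaged 313 ± 43.4 CPM in EM and 279 ± 49.7 CPM in CM (SD, n = 4 each). The log2 fold change was 0.17 ± 0.13 (SE, edgeR adjusted p = 0.323). With library totals it was 0.55 and passed (adjusted p = 0.00176), a shift of about the size of that scaling's shift over all genes. In EM against CM, 38.1% of all genes were called, and neither Krt8 nor Krt18 was among them. For EV against CV the log2 fold change of Krt18 was 0.90 ± 0.13, with means of 389 ± 29.5 CPM in EV and 208 ± 19.9 CPM in CV (n = 4 each), and is given with no test. It was 1.39 with library totals.

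The compound alone gave Krt18 a log2 fold change of 0.42 ± 0.13 in CM against CV (edgeR adjusted p = 0.239), and with EE one of -0.31 ± 0.13 in EM against EV (edgeR adjusted p = 0.295). In CM against CV, 0.0929% of all genes were called, 12 genes, and neither Krt8 nor Krt18 was one of them. By edgeR the unadjusted p there was 0.0212 for Krt8 and 0.00486 for Krt18. The difference between the 2 effects, the interaction, was -0.73 ± 0.18 for Krt18 (edgeR adjusted p = 0.0893) and -0.43 ± 0.22 for Krt8 (edgeR adjusted p = 0.412). In that test 0.132% of all genes were called. The Krt18 interaction passed with DESeq2 (adjusted p = 0.00639), without CM replicate 4 (-0.82, adjusted p = 0.0467) and without EM replicate 1 (-0.81, adjusted p = 0.0412).

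**Figure D2:**
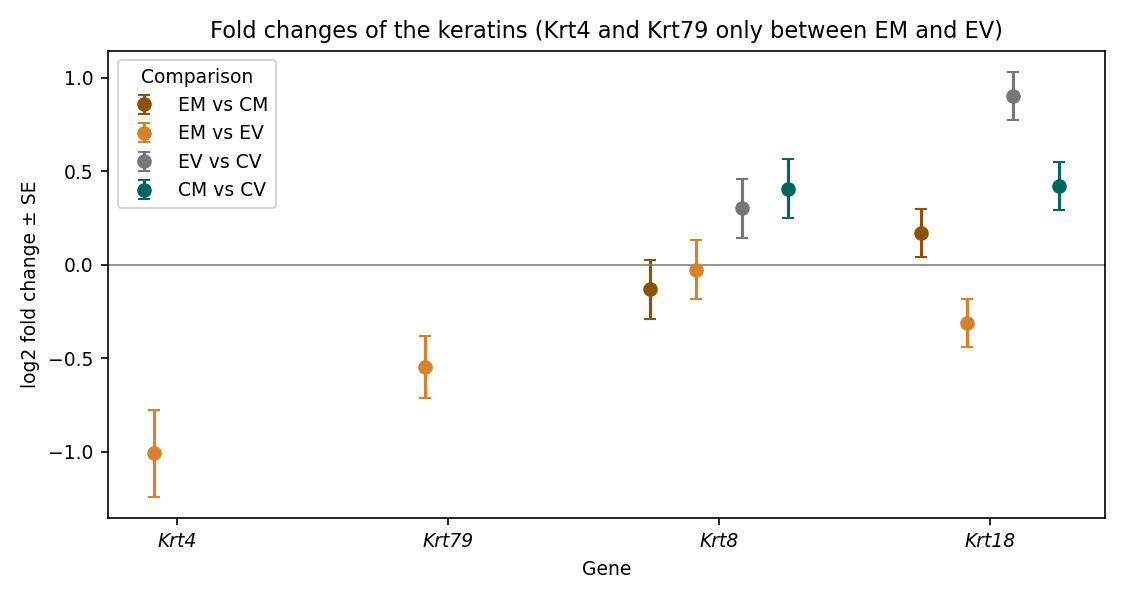
Log2 fold changes with SE of the keratins in EM against CM, EM against EV, EV against CV and CM against CV, with Krt4 and Krt79 only for EM against EV. Krt18 has its highest value, 0.90, in EV against CV and a value of -0.31 in EM against EV, while Krt8 stays between -0.13 and 0.41. All values use the scaling corrected for composition.

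A ratio within a library does not depend on scaling. The ratio of Krt8 to Krt18 ran from 0.617 to 0.832 in EM libraries, from 0.528 to 0.668 in EV, from 0.768 to 1.07 in CM and from 0.706 to 1.12 in CV. All EV libraries thus lay below all libraries without EE, and EM overlapped both EV and the groups without EE. The mean log2 ratio was -0.46 ± 0.18 in EM and -0.14 ± 0.20 in CM (SD, n = 4 each), a difference of -0.32 (exact two-sided permutation p = 0.0571, adjusted 0.129 over 3 comparisons). Against EV, with a mean of -0.74 ± 0.17, the EM value differed by 0.29 (exact permutation p = 0.0857, adjusted 0.129). CM and CV differed by 0.037 (exact permutation p = 0.8286, adjusted 0.8286), with a CV mean of -0.18 ± 0.30. The smallest p that 4 against 4 libraries allow is 0.0286.

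Adding Krt4 and Krt79 to Krt8 gave a different type II balance. The ratio of these 3 type II keratins to Krt18 was 1.58 to 1.80 in EM, 1.79 to 2.22 in EV, 0.769 to 1.08 in CM and 0.706 to 1.12 in CV. Libraries with EE had more type II than type I message in this sum, and libraries without EE had about equal amounts. Krt4 and Krt79, whose values chose them, set this difference.

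**Figure D3:**
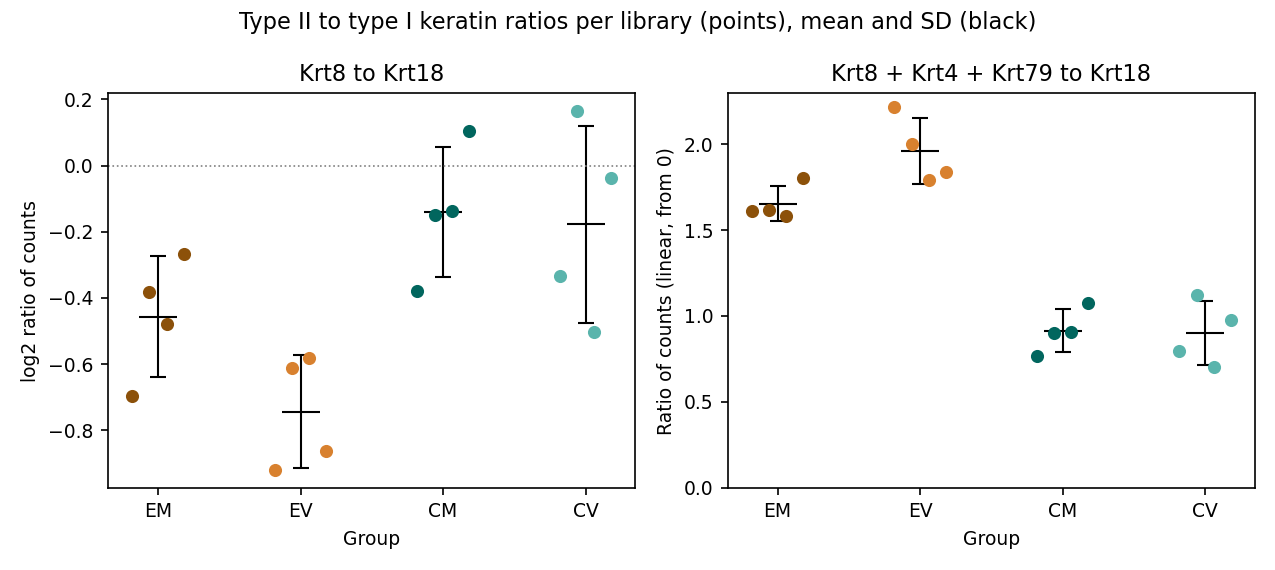
Log2 ratio of Krt8 to Krt18 (left) and ratio of the summed type II keratins Krt8, Krt4 and Krt79 to Krt18 (right, linear from 0) in each library, by group, with mean and SD. The left ratio is lowest in EV, from -0.92 to -0.58, whereas the right one is highest there, from 1.79 to 2.22.

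The other keratins with a row were Krt10, a type I keratin of differentiating epidermis, and Krt19, the type I keratin of bile ducts. Krt10 averaged 3.01 ± 1.34 CPM in EM, 2.64 ± 0.607 in EV, 3.50 ± 0.865 in CM and 3.09 ± 0.787 in CV (SD, n = 4 each). Krt19 averaged 0.945 ± 0.389 CPM in EM, 1.30 ± 0.487 in EV, 1.70 ± 1.03 in CM and 1.24 ± 0.967 in CV. Neither passed in any comparison, with edgeR adjusted p of 0.639 and 0.239 in EM against CM.

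The 6 keratins together reached 680.0 to 944 CPM in EM and 1062 to 1396 CPM in EV, against 477 to 607 CPM in CM and 331 to 495 CPM in CV. Krt4 and Krt79 made up 32.2% to 37.9% of that sum in EM libraries and 40.1% to 52.4% in EV libraries. In CM they made up 0.0124% to 0.0228%, and in CV 0% to 0.0927%. The share of Krt8 was 23.5% to 29.6% in EM, 16.4% to 23.8% in EV, 43.2% to 51.1% in CM and 41.1% to 52.2% in CV.

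**Figure D4:**
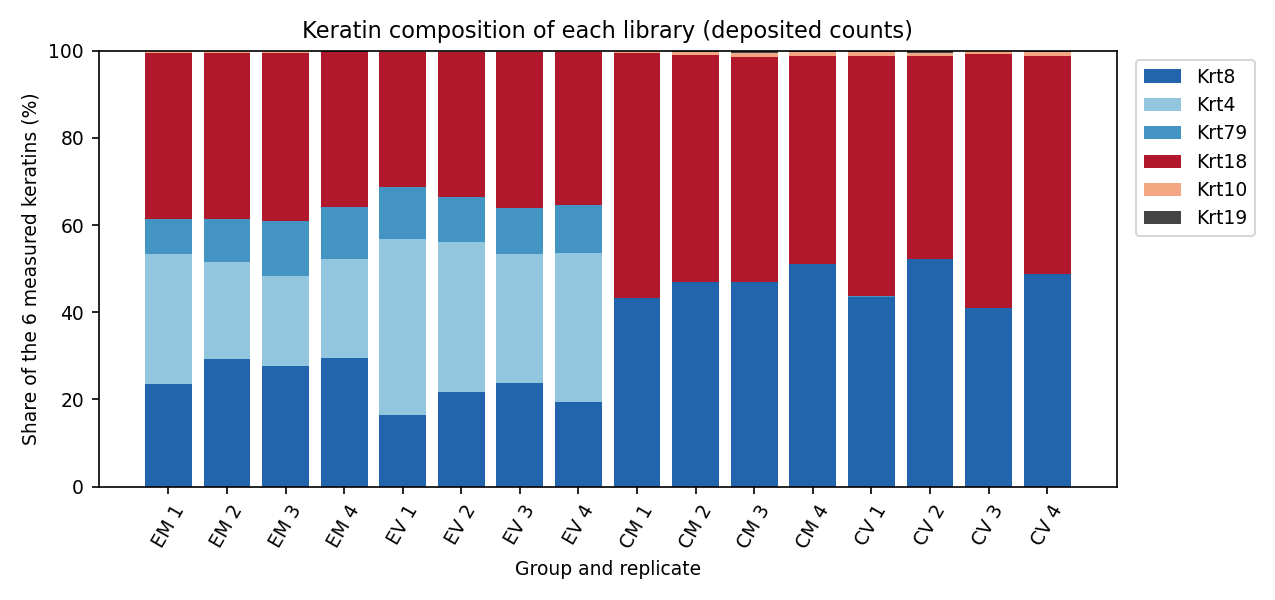
Share (%) of the summed counts of 6 measured keratins taken by each keratin, one bar per library, by group and replicate. Krt4 and Krt79 fill 32.2% to 52.4% of the bars with EE and less than 0.1% of those without.

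Proteins that hold or modify the filaments were followed in a list of 27 partners, of which 25 were tested. It joins cytolinkers, desmosome proteins, other intermediate filaments and Mallory-Denk body proteins. In EM against CM, 8 members rose and 2 fell, against 19.4% of all genes called higher and 18.6% lower, and the median log2 fold change was 0.01 (0.00 over all genes). With library totals the counts were 16 and 1, where 5889 of all 12918 genes were called higher and 935 lower. In EV against CV, 11 rose and 2 fell, against 25.5% and 24.9% of all genes. Library totals gave 20 and 1 there, where 7048 of all genes were called higher and 1329 lower. In EM against EV, 0 members rose and 1 fell, with 1.51% of all genes called higher and 0.178% lower. In CM against CV, edgeR called 0 members, 2 had an unadjusted p under 0.05, and DESeq2 called 1.

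Tgm2, the transglutaminase that cross-links keratins in Mallory-Denk bodies, averaged 825 ± 274 CPM in EM, 1565 ± 260.2 CPM in EV, 67.9 ± 14.9 CPM in CM and 56.9 ± 7.23 CPM in CV (SD, n = 4 each). It rose in EM against CM by 3.60 ± 0.24 on the log2 scale (edgeR adjusted p = 9.08e-08). It fell in EM against EV, with a log2 fold change of -0.92 ± 0.21 (edgeR adjusted p = 0.0432), a call lost in 8 of 16 alternatives, among them leaving out any single EV library or EM replicate 2, 3 or 4. Its adjusted p there ranged up to 0.156. The desmosomal cadherins moved in opposite directions. Dsc2, desmocollin, rose to 50.6 ± 9.14 CPM in EM, against 19.7 ± 2.78 CPM in CM, a log2 fold change of 1.36 ± 0.15 (edgeR adjusted p = 8.06e-06). Dsg2, desmoglein, fell to 16.97 ± 1.71 CPM in EM, against 28.5 ± 3.30 CPM in CM, a log2 fold change of -0.75 ± 0.10 (edgeR adjusted p = 2.69e-05). The EM against CM calls of these 3 genes were kept in all 16 alternatives.

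Markers of other epithelia were compared, since Krt4 and Krt79 are keratins of stratified epithelium. Of 16 squamous and skin markers only Perp, Sbsn and Krt10 were tested. In EM against CM edgeR called 0 of them, against 38.1% of all genes. An unadjusted edgeR p under 0.05 was found for 1 of them and for 5985 of all 12918 genes. DESeq2 called 1 lower and 0 higher there, where 2611 of all genes were called lower and 2606 higher. With library totals edgeR called 1 higher and 0 lower, where 5889 of all genes were called higher and 935 lower. The summed level of these markers was 59.8 to 70.2 CPM in EM, 56.5 to 59.0 in EV, 69.2 to 77.2 in CM and 69.2 to 78.6 in CV. Scaled by library totals alone it was 67.2 to 79.0 in EM, 66.2 to 72.7 in EV, 60.5 to 68.4 in CM and 57.6 to 71.6 in CV, so its direction depends on the scaling. Perp set most of that sum, with means of 60.2 ± 4.67 CPM in EM and 68.0 ± 4.00 CPM in CM (SD, n = 4 each). Krt10 averaged 3.01 and 3.50 CPM there, and Sbsn 1.00 and 1.78 CPM, so the sum describes mainly Perp. The defining basal and cornified markers, Krt5 and Krt14 among them, were not analysed here. The mesothelium list had 1 of 8 markers tested, Krt19, which was not called.

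Of 16 bile duct markers, 8 were tested, and 2 rose and 1 fell in EM against CM, near the 19.4% and 18.6% of all genes called higher and lower. With library totals 3 were called higher and 0 lower, where 5889 of all 12918 genes were called higher and 935 lower. The summed level of the 8 markers was 182 to 299 CPM in EM, 238 to 322 in EV, 106 to 181 in CM and 78.5 to 138 in CV. Spp1, the osteopontin gene, rose by 1.19 ± 0.21 on the log2 scale (edgeR adjusted p = 4.65e-04), and Sox9, a ductal transcription factor, rose by 2.04 ± 0.44 (edgeR adjusted p = 0.00203). Epcam, which marks duct cells, had a log2 fold change of -0.73 ± 0.24 (edgeR adjusted p = 0.0251) and lost the call in 6 of 16 alternatives, among them library totals and leaving out CM replicate 3 or EM replicate 1, 2 or 4. Krt19 and Epcam, the defining duct markers, averaged under 3 CPM in all groups. Spp1 averaged 132 ± 43.7 CPM in EM, 157 ± 29.9 in EV, 58.1 ± 7.34 in CM and 43.9 ± 6.17 in CV (SD, n = 4 each). It thus made up a large part of the summed level of the markers. The part of duct cells in the Krt4, Krt79 and Krt18 levels was not tested.

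Hepatocyte markers were plentiful in all groups, and 8 of 12 fell and 1 rose in EM against CM, against 18.6% and 19.4% of all genes. With library totals 6 were lower and 1 higher, where 935 of all 12918 genes were called lower and 5889 higher. The summed level of the 12 markers was 59081 to 75687 CPM in EM, 50599 to 61472 in EV, 127930 to 149140 in CM and 128900 to 160630 in CV. Macrophage markers summed to 1894 to 3149 CPM in EM, 2299 to 2689 in EV, 397 to 809 in CM and 383 to 985 in CV, with 11 of 12 called higher in EM against CM, where 19.4% of all genes were. Of the proliferation genes, 11 of 11 tested were called higher. Both counts were the same with library totals. Their part in the keratin levels was not tested.

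The measured genes beside the keratins on the chromosome had fold changes far smaller than those of Krt4 and Krt79. These 6 genes, 3 measured on each side, were chosen after values were seen. Before Krt4 they were Grasp, Nr4a1 and Atg101, between 23 and 25 protein-coding genes away, and after Krt18 they were Eif4b, Tns2 and Spryd3. In EM against CM their log2 fold changes ran from -1.49 to 0.27 and 4 of 6 were called, all of them lower, against 18.6% of all genes. Only Tns2, a focal adhesion protein gene, kept its call in all 16 alternatives, with a log2 fold change of -1.26 ± 0.25 (edgeR adjusted p = 9.66e-04). Eif4b turned to 0.05 with library totals, and Atg101 and Nr4a1 lost their calls with that scaling. Spryd3 was called higher in EM against CM with library totals (0.64) and not otherwise, and it was called higher in EV against CV (0.37 ± 0.15, edgeR adjusted p = 0.0469). That call was lost with the replicate block and without CV replicate 1, 2 or 4 or EV replicate 1, 2 or 3, with an adjusted p of up to 0.161.

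Likeness of pattern was measured by Pearson's r of log2 CPM over the 16 libraries, as a description in which the 4 groups themselves set most of the value. Krt4 was most like Trex2 (r = 0.997), Slco2a1 (0.996) and Gng12 (0.995), and Krt79 most like Trex2 (0.996), Krt4 (0.995) and Gng12 (0.994). Trex2 averaged 36.2 CPM in EM and 61.9 CPM in EV, and was listed at 0 in CM and CV. Gng12 averaged 795 CPM in EM, 1186 in EV, 36.3 in CM and 32.4 in CV. Krt18 was most like Osmr (0.936), Cdk1 (0.934) and Rbpms (0.934), and Krt8 most like Abhd6 (0.873), Zbtb16 (0.800) and Snord13 (0.792). With group means removed, Krt8 and Krt18 had an r of 0.484 over 16 libraries and 0.434 over the 8 libraries with EE. Over those 8 libraries, the r of the deviations of Krt4 was 0.888 with Krt18, 0.370 with Krt79 and 0.182 with Krt8. Over all 16 libraries it was 0.360 with Krt18, 0.316 with Krt79 and 0.635 with Krt8. Each CM and CV library held only 0 to 3 counts of Krt4, so the values over 16 libraries rest partly on single counts.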

How the data were processed

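Liver RNA was enriched for poly(A) message and made into NEBNext Ultra libraries, per the labels' protocols, and STAR, Salmon and GRCm39 appear, with no version or role, in the submitters' processing notes. For annotation, counting and strand handling, the sources used here give nothing. The authors deposited estimated counts, all whole numbers, of 13006 genes in 16 libraries. For the 731 genes that were at 0 in 1 or more libraries (82.8% with an exon length), the smallest nonzero value fell with exon length at a slope of -0.968 on log2 scales, as in values divided by length, so counting intervals are approximate. Reads from processed pseudogenes of Krt8 and Krt18 could not be assigned here. Symbols came from GENCODE M21, an earlier build, and matched 12692 identifiers. Promoter windows came from RefSeq.

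Groups and doses came from the labels. The members and lists were chosen with earlier results of these data known. Counts were filtered with filterByExpr (12918 genes), scaled with TMM and modelled in edgeR 4.0.16 (R 4.3.3) with 1 coefficient per group over all 16 libraries (12 residual degrees of freedom, biological coefficient of variation 0.284). Quasi-likelihood tests used Benjamini-Hochberg adjustment over all genes and a threshold of 0.05. Each SE was the log2 fold change over the root of its F statistic. Krt8 to Krt18 ratios were compared by exact permutation tests in scipy 1.17.1. Contrasts that had chosen a gene, or in which it passed the filter through 1 side, were given with no test. Named genes were the members, other measured keratins, the 3 list members with the smallest p in EM against CM and any called in the MI763F comparisons, and the 3 genes most like each member. Those printed are a part of them, picked after their values were seen. The lists not described in the text were stellate, endothelial, lymphoid, erythroid and acinar markers, of which 3 of 10, 4 of 10, 3 of 9, 5 of 5 and 1 of 2 tested were called higher in EM against CM, with 1 stellate marker lower, against 19.4% and 18.6% of all genes. With library totals 4, 7, 5, 5 and 1 were called higher and 0 lower, where 5889 of 12918 genes were called higher and 935 lower. Alternatives were RLE factors, library totals, no low count filter, 1 CPM in 8 libraries, DESeq2 1.42.0, limma 3.58.1 with a trend, a fit of only the compared groups, a replicate block and each library left out. The procedure was tested on simulated counts. Figures used matplotlib 3.10.9 in Python 3.11.15.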

Additional observations from a re-analysis of the deposited data

Results flagged for a closer look

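In 24 groups of 4 libraries, 2 had a library far from the other 3, and chance flags about 1 in 20. Krt79 stood at 167 CPM in EV replicate 1, while the other EV libraries had 112 to 116 CPM. The ratio of the summed type II keratins to Krt18 was 1.80 in EM replicate 4, while the other EM libraries had 1.58 to 1.62. Neither value was explained here.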

How the results depend on the processing

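With library totals, Krt8 in EM against CM reversed to 0.24 on the log2 scale and Krt18 there passed at 0.55; the scaling's own shift over all genes was 0.38. With DESeq2, Krt79 in EM against EV (-0.54) and the Krt18 interaction (-0.73) passed. Krt79 had been chosen with its EV level known, so its result is not independent of the choice. Leaving out 1 library at a time gave -0.82 to -0.62 for the Krt18 interaction, -0.091 to 0.055 for Krt8 in EM against EV, and -0.071 to 0.15 for the Krt8 to Krt18 log2 ratio in CM against CV, where the sign turned without CV replicate 1 or 3 or CM replicate 4. The cause was not tested. The other tested values of Krt8 and Krt18 kept their direction and their side of the threshold in every alternative run. Their ratio kept its direction in all 10 alternatives for EM against CM and for EM against EV. The ratio could not pass with 1 library left out or with the replicate block, where the smallest permutation p allowed exceeds 0.05. Krt10 and Krt19 passed in no alternative run. With library totals Krt10 turned to 0.15 in EM against CM (-0.22 with TMM), 0.24 in EV against CV (-0.23) and -0.092 in the interaction (0.011). Other changes of sign included the Krt10 interaction with limma (-0.11) and without CV replicate 1 (-0.039). Krt19 in EV against CV, 0.075 in the main fit, turned to -0.041 without CV replicate 1.

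Replicate numbers did not pair the libraries: the 16 same-numbered pairs had correlations of -0.0502 to 0.0957, with 0 over 0.1. With the replicate block, Krt79 in EM against EV was -0.53, 6 genes were called in CM against CV (12 without it) and 79 in the interaction (17 without it).

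Calls over all genes moved more. DESeq2 called 238 genes in CM against CV, 487 higher and 99 lower in EM against EV (218 in all with edgeR) and 462 in the interaction. Fitting only the groups compared called 2 in CM against CV. Library totals called 127 in EM against EV and 26 in the interaction, and limma 30 in the interaction. Leaving out 1 library gave 4 to 39, 36 to 445 and 10 to 208 calls in these comparisons. With library totals, 86.3% of EM against CM calls were higher (51% with TMM), 59.1% in EM against EV (89.4%) and 84.1% in EV against CV (50.5%). At an unadjusted p under 0.05, 1362 genes passed in CM against CV. Few counts of Krt4 and Krt79 without EE limit their fold changes. On the log2 scale these ran from 11.19 to 13.77 for Krt4 and from 9.16 to 10.44 for Krt79 in EV against CV.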
